A study of Brassica napus with 27 samples.

Results

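SUT2-1 (LOC106400948) and SUT4-2 (LOC106346228) are 2 sucrose transporter genes of oilseed rape (Brassica napus), and they are followed here through 27 leaf libraries. They make up 2 of the 119532 genes in the count table and 2 of the 72039 genes with enough counts to be tested. Both were chosen by their identifiers, with an earlier analysis of these libraries at hand. That analysis had named SUT2-1 for its low level in the double mutant line on the second short day, so every SUT2-1 value that rests on those libraries, or on the wild-type libraries of that day, is given as a description with no test. No comparison was recorded by which SUT4-2 had been chosen.

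Sucrose is the form in which most plants carry carbon from leaves to the rest of the plant. Sucrose transporters of the SUT family, also called SUC, move sucrose across a membrane together with protons. In Arabidopsis, members of the family load sucrose into the phloem, and the member of the SUT4 type lies in the vacuole membrane, where it lets sucrose out of the vacuole. Which Arabidopsis gene each of the oilseed rape genes matches is not stated in the gene table used for names, and their function in oilseed rape is not described there. That table, of the RefSeq Da-Ae assembly, places SUT2-1 on chromosome C5, where it also carries the name SUT2-3, and SUT4-2 on chromosome A6.

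The plants were wild type (cultivar Westar), a line labelled bnaa06fah with only BnaA06FAH mutated by CRISPR/Cas9 (the single line), and a line labelled bnafah with both BnaA06FAH and BnaC05FAH mutated (the double line). FAH genes were not analysed here, so the genotypes were taken from the labels alone, and the labels call the lines knock-downs while the series description calls the alleles null, with no number of independent lines. Seedlings spent 5 days on MS medium and 2 weeks in soil in long days, and leaves were sampled without transfer (LD) or after 1 (SD1) or 2 (SD2) days in short days. The growth description gives 16 h of light for both day lengths, which does not tell them apart, so LD, SD1 and SD2 are used as names of stages. Each of the 9 groups had 3 libraries, and nothing says that these came from separate plants, so p-values measure the spread between libraries, which may be technical. Whole leaves were sequenced, in which fewer cells of a type and less RNA per cell cannot be told apart.

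Libraries held 49700646 to 58862542 counts, and log2 CPM (counts scaled to library size) correlated at 0.883 to 0.957 between replicates of a group. Replicate 2 of the double line at SD2 stood apart from replicates 1 and 3 over many genes. On the second principal component, an axis of spread over the 5000 most variable genes (17.1% of variance), it lay at -5.43 against 117 and 124. It stood apart in SUT2-1 too, though not in SUT4-2. Several values of SUT2-1 and of sugar handling genes are also given without it. Those of LOC106401005 and of the cell type markers are given only with it. Counting error was small for SUT2-1 (138 to 4603 counts a library, median 2147) and larger for SUT4-2 (31 to 145 counts, median 65). Poisson counting alone gives a coefficient of variation of 0.0216 for SUT2-1 at its median count and 0.124 for SUT4-2. The fitted biological coefficients of variation were 0.549 and 0.311, so counting was the smaller part of the error of both genes in the fit over all groups.

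SUT2-1 was the more abundant transcript and the more variable one. Its mean over all libraries was 37.5 CPM, above 94.7% of the tested genes. In wild type it stood at 31.1, 11.5 and 6.94 CPM in LD, at 29.6, 43.9 and 28.7 CPM at SD1, and at 73.7, 50.3 and 43.4 CPM at SD2. The SD2 libraries of wild type all lay above its LD libraries, and its SD1 libraries overlapped those of both other stages.

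In the single line SUT2-1 stood at 21.2, 53.8 and 20.2 CPM in LD, at 28.8, 39.1 and 74.5 CPM at SD1, and at 50.2, 54.8 and 62.0 CPM at SD2. The 3 stages of the single line overlapped one another. In the double line it stood at 54.1, 59.2 and 13.6 CPM in LD, at 56.8, 43.2 and 33.6 CPM at SD1, and at 4.45, 22.7 and 2.18 CPM at SD2. The double line at SD2 held the lowest group mean of SUT2-1, and within that group the highest library was 10.4 times the lowest. Its replicate 2, at 22.7 CPM, lay within the range of all 3 genotypes in LD, whereas replicates 1 and 3 lay below every other library.

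**Figure D1:**
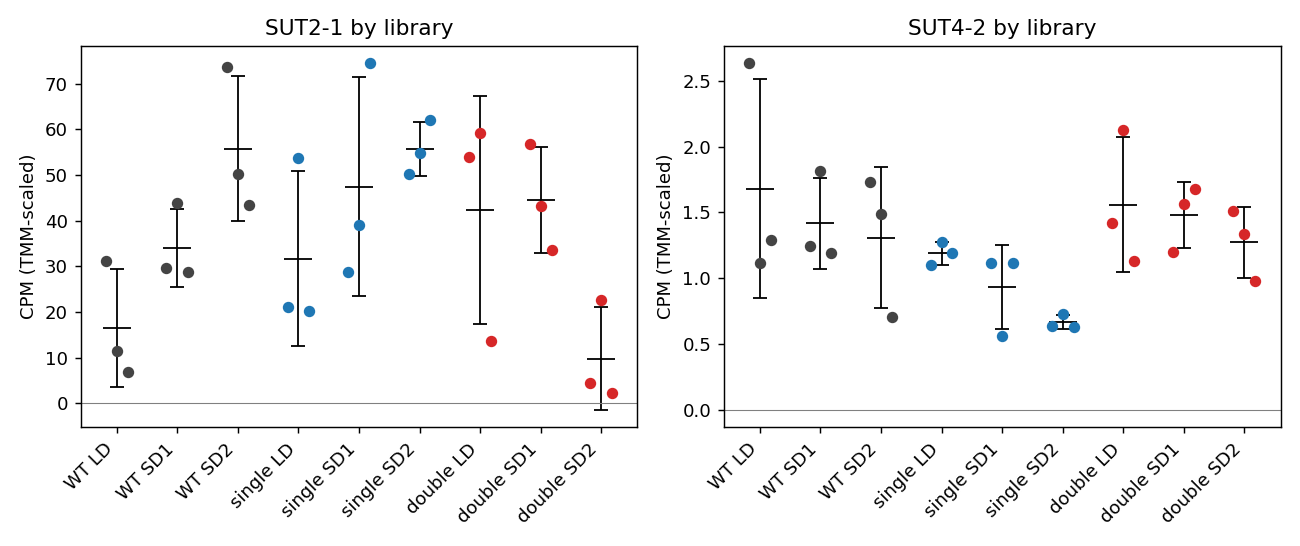
Level of SUT2-1 and SUT4-2 in CPM on TMM-scaled library sizes, 1 point per library, with the mean and SD of each group of 3. SUT2-1 in the double line at SD2 has 2 points at 4.45 and 2.18 CPM and 1 at 22.7 CPM, while SUT4-2 is lowest in the single line at SD2, near 0.666 CPM.

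Ordered by group mean, SUT2-1 ran from 9.77 ± 11.2 CPM (SD, n = 3) in the double line at SD2 through wild type in LD (16.5 ± 12.9), the single line in LD (31.7 ± 19.1), wild type at SD1 (34.1 ± 8.56), the double line in LD (42.3 ± 25.0) and at SD1 (44.5 ± 11.7) and the single line at SD1 (47.5 ± 23.9), to the single line at SD2 (55.7 ± 5.91) and wild type at SD2 (55.8 ± 15.9). No neighbours in this order were separated, since the libraries of each overlapped those of the next. Of the 36 pairs of groups, 9 did not overlap, and 5 of these 9 included the double line at SD2. The share of pairs without overlap over all tested genes is not given here, so these counts have no scale beside them.

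At SD2 the double line held less SUT2-1 than either other genotype, with every library below every library of both. Against wild type the log2 fold change was -2.52 ± 0.70 (SE), a fold of 5.72, and against the single line it was -2.51 ± 0.70. Without replicate 2 of the double line these were -4.07 and -4.07, and without replicate 3 they were -2.02 and -2.03. The direction was thus the same with and without the library that stood apart, and the size was not. These values come from the comparison that brought SUT2-1 to notice, or share its libraries, and carry no test. Of all tested genes, 6.8% were called at SD2 between the double line and wild type and 7.5% between the 2 mutant lines, where called means an adjusted p under 0.05 in edgeR's quasi-likelihood test.

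Over the stages SUT2-1 went opposite ways in wild type and in the double line, again as a description. In wild type it stood higher at SD2 than in LD by a log2 difference of 1.75 ± 0.68, or 2.60 without replicate 1 of LD. In the double line it stood lower at SD2 than in LD by -2.12 ± 0.69, or -3.67 without replicate 2 of SD2, although the groups overlapped through that replicate and through replicate 3 of LD. Lower values were also found at SD2 against SD1 in the double line, by -2.19 ± 0.69 (-3.75 without replicate 2 of SD2), where the groups did not overlap. The difference of the double line's LD-to-SD2 change from that of wild type was -3.87 ± 0.97, and from that of the single line -2.93 ± 0.96 (-4.49 without replicate 2 of SD2). Wild type at SD2 differed from its SD1 by 0.71 ± 0.66. Of the tested genes, 5.87% were called for SD2 against LD in wild type, 15.7% in the double line, 2.21% for SD2 against SD1 in the double line, 0.00278% for that step in wild type, 6.17% for the double minus wild-type change to SD2 and 0.0208% for the double minus single change to SD2.

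The single line did not share the low SUT2-1 level at SD2. Its log2 difference from wild type there was 0.00 ± 0.66, and its LD-to-SD2 change differed from that of wild type by -0.94 ± 0.94, or -1.78 without replicate 1 of wild type in LD. Both are descriptions, as they use the wild-type SD2 libraries.

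In the other 14 comparisons, which use neither the double line nor wild type at SD2, SUT2-1 was tested and none was called. None reached an unadjusted p under 0.05 in edgeR, the edgeR adjusted p ran from 0.455 to 1, and DESeq2 called none of the 14 (lowest adjusted p 0.321). In LD the double line stood above wild type by a log2 difference of 1.35 ± 0.67 (95% interval -0.04 to 2.75, edgeR adjusted p = 0.455), which replicate 1 of wild type in LD moved most, to 2.20 without it. The single line in LD stood 0.94 above wild type (edgeR adjusted p = 0.580), a value of 0.32 without replicate 2 of the single line in LD and of 1.78 without replicate 1 of wild type in LD. At SD1 the single line stood 0.48 and the double line 0.39 above wild type (edgeR adjusted p = 0.888 and 1), the first of which lost its sign without replicate 3 of the single line, while the second ran from 0.17 to 0.61 leaving out 1 library. The 2 mutant lines differed from each other by 0.42 in LD and by -0.09 at SD1 (edgeR adjusted p = 0.981 and 1), double minus single, and the latter turned to 0.39 without that same library. In LD the difference between the lines ran from 0.09 to 1.03, without replicate 2 of the double or of the single line. Wild type at SD1 stood 1.04 ± 0.67 above LD (edgeR adjusted p = 0.492), and 1.88 or 0.67 above it without replicate 1 or 3 of LD. Within the single line the differences were 0.58 for SD1 against LD, 0.81 for SD2 against LD and 0.23 for SD2 against SD1, with edgeR adjusted p of 0.773, 0.477 and 0.997. Without replicate 2 of the single line in LD the first was 1.21 and the second 1.43, and without replicate 3 at SD1 the first was 0.10 and the third 0.71. A p above the threshold at this replicate spread does not show that these levels were alike.

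**Figure D2:**
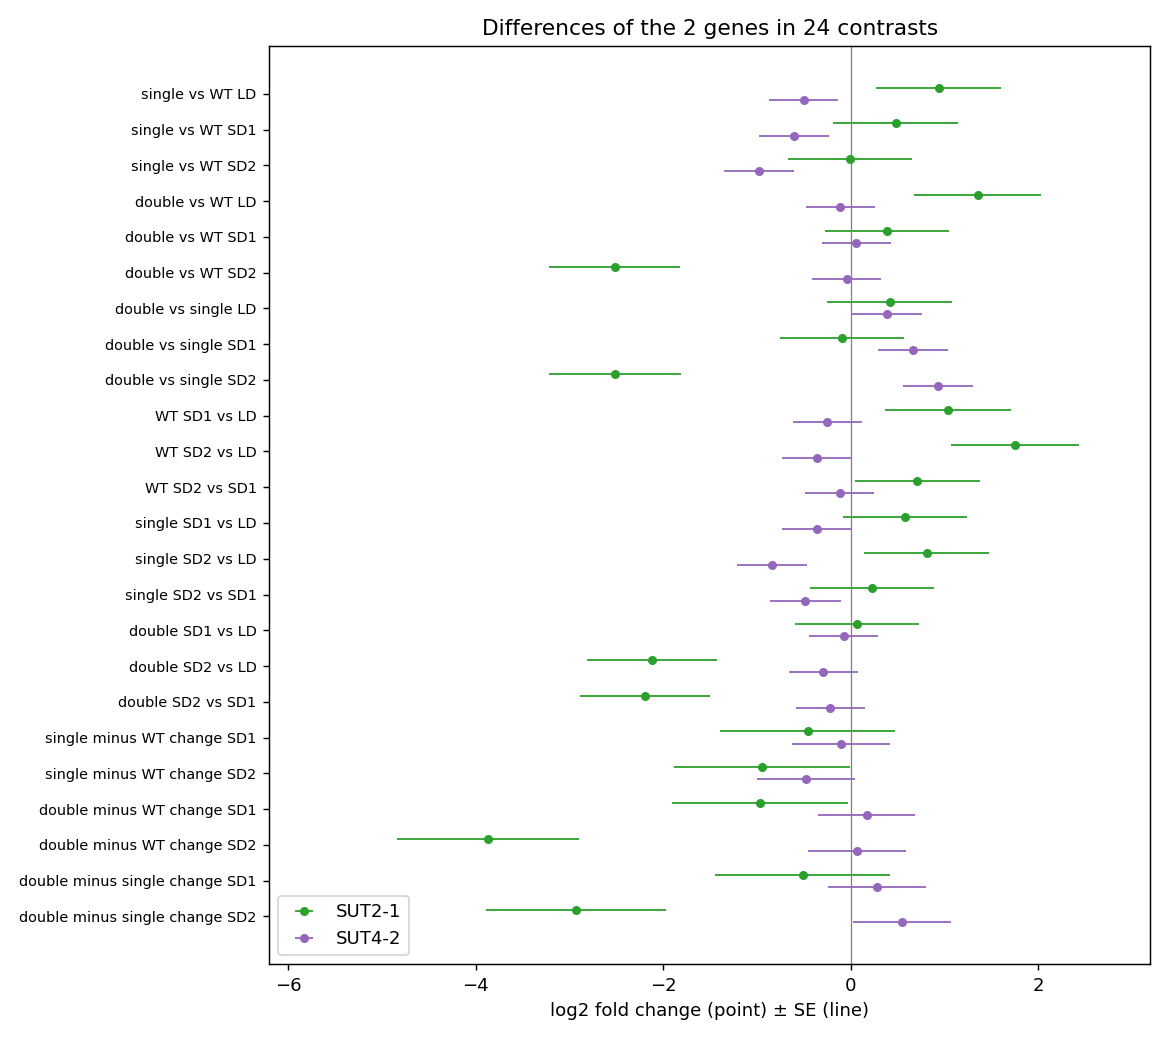
log2 fold change of SUT2-1 and SUT4-2 in 24 comparisons, from 1 edgeR fit of all libraries, with the SE as a line. SUT2-1 lies at -2.12 or below in each comparison of the double line at SD2, all of which are untested, while SUT4-2 stays between -0.97 and 0.93.

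The share of tested genes called gives the scale for those counts of 0. It was 2.98% for the single line against wild type in LD and 3.07% at SD1, 0.652% for the double line against wild type in LD and 0.565% at SD1, and 2.13% for double against single line in LD and 2.15% at SD1. For SD1 against LD it was 0.112% in wild type, 0.268% in the single line and 0.271% in the double line. In the single line 9.97% were called for SD2 against LD and 0.00416% for SD2 against SD1. For the differences in the change to SD1 it was 0.00278% (single minus wild type), 0% (double minus wild type) and 0.00139% (double minus single). In several of these comparisons hardly any gene of the genome was called, so a gene not called there says little.

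SUT4-2 was a low transcript, with a mean of 1.28 CPM, above 33.1% of the tested genes. In wild type it stood at 2.63, 1.12 and 1.29 CPM in LD, at 1.25, 1.81 and 1.19 CPM at SD1, and at 1.73, 1.49 and 0.708 CPM at SD2. The 3 wild-type stages overlapped, and the highest value of the whole series was replicate 1 of wild type in LD. The single line held 1.10, 1.28 and 1.20 CPM in LD, 1.12, 0.565 and 1.12 CPM at SD1, and 0.636, 0.727 and 0.634 CPM at SD2. The double line held 1.42, 2.13 and 1.13 CPM in LD, 1.20, 1.56 and 1.68 CPM at SD1, and 1.51, 1.33 and 0.978 CPM at SD2. Every single-line library at SD2 lay below every library of 6 of the 8 other groups, with no share over all tested genes to set beside it. These single-line libraries held 34 to 38 counts, closer together than the 95% Poisson interval of 38 counts, 26.9 to 52.2.

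From low to high, the group means of SUT4-2 were 0.666 ± 0.0533 CPM (SD, n = 3) in the single line at SD2, 0.932 ± 0.318 in the single line at SD1, 1.19 ± 0.0863 in the single line in LD, 1.27 ± 0.271 in the double line at SD2, 1.31 ± 0.534 in wild type at SD2, 1.42 ± 0.345 in wild type at SD1, 1.48 ± 0.249 in the double line at SD1, 1.56 ± 0.515 in the double line in LD and 1.68 ± 0.828 in wild type in LD. The 3 groups of the single line were the 3 lowest. Neighbours in this order overlapped in every case, and 10 of the 36 pairs of groups did not overlap. For this count too the share over all tested genes is not given here. The single line also stood apart over many other genes. Along the leading principal component (36.1% of variance) its libraries lay at 114 to 137. Those of wild type and the double line lay at -90.0 to -43.6, although the double line is labelled with a BnaA06FAH mutation too. Whether the low SUT4-2 level belongs to that wider difference or to the labelled mutation was not tested.

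None of the 24 comparisons of SUT4-2 was called. In 3 of them the unadjusted p of edgeR was under 0.05, as it was for 10.9% of all tested genes in the single line against wild type at SD2, 23.4% between the lines at SD2 and 26.1% for SD2 against LD in the single line. The edgeR adjusted p ran from 0.132 to 1, and DESeq2 called none (lowest adjusted p 0.0943). The single line stood below wild type by a log2 difference of -0.50 in LD, -0.60 at SD1 and -0.97 ± 0.38 at SD2 (95% interval -1.75 to -0.20), with edgeR adjusted p of 0.601, 0.611 and 0.279. At SD2 1 wild-type library, at 0.708 CPM, lay within the range of the single line, and 2.56% of the tested genes were called in that comparison. In LD the difference was -0.02 without replicate 1 of wild type, the library with the highest level.

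The double line's SUT4-2 level lay close to that of wild type at every stage. The log2 differences were -0.11 in LD, 0.06 at SD1 and -0.04 at SD2 (95% interval at SD2 -0.80 to 0.72), with edgeR adjusted p of 0.954, 1 and 0.969. The signs of the LD, SD1 and SD2 differences each turned when some single library was left out, and that at SD2 also turned on the authors' FPKM values. Against the single line the double line stood higher by 0.39, 0.67 and 0.93 ± 0.38 in the same order, with edgeR adjusted p of 0.931, 0.741 and 0.132. At SD2 these 2 lines did not overlap, and the difference was 0.90 without replicate 2 of the double line.

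Across stages SUT4-2 stood lower at SD2 than in LD by -0.36 in wild type, -0.84 ± 0.38 in the single line and -0.29 in the double line, with edgeR adjusted p of 0.594, 0.161 and 0.645. In wild type the sign turned without replicate 1 of LD (0.12), and in the double line it turned on FPKM with a pseudocount of 0.1 (0.02). The change to SD2 in the single line differed from that in wild type by -0.48, and 0% of the tested genes were called in that comparison. In the double line it differed from wild type by 0.07. Averaged over the 3 stages, an average added after seeing the data and given with no test, the single line stood at -0.69 ± 0.22 (SE) against wild type and the double line at -0.03 ± 0.21. The same averages for SUT2-1 were 0.47 ± 0.38 and -0.26 ± 0.38.

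The 2 genes did not follow each other. Over the 27 libraries the correlation of their log2 CPM was -0.017 (Pearson's r) and 0.056 (Spearman's rho), given as a description over libraries that share groups. Levels of different genes can be set side by side only per length, for which the authors' FPKM (fragments scaled to transcript length and library size) was used. The mean FPKM was 18.4 for SUT2-1 (1.25 to 40.4) and 0.529 for SUT4-2 (0.236 to 1.04). SUT2-1 exceeded SUT4-2 in every library, by 2.64 to 118 times with a median of 30.8.

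The ratio of the FPKM of SUT2-1 to that of SUT4-2 was smallest in the double line at SD2, where it was 2.64, 3.51 and 20.1. In the single line at SD2 it was largest, 89.7 to 118. In wild type it was 6.39 to 14.1 in LD, 28.4 to 28.9 at SD1 and 40.4 to 72.9 at SD2, so the 3 wild-type stages did not overlap. In the double line in LD it was 14.5 to 45.4 and at SD1 23.8 to 56.2, and in the single line in LD 20.1 to 50.3 and at SD1 30.8 to 83.1. Both ends of this range rest on libraries that brought SUT2-1 to notice or on the lowest counts of SUT4-2, so the ratio is a description.

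**Figure D3:**
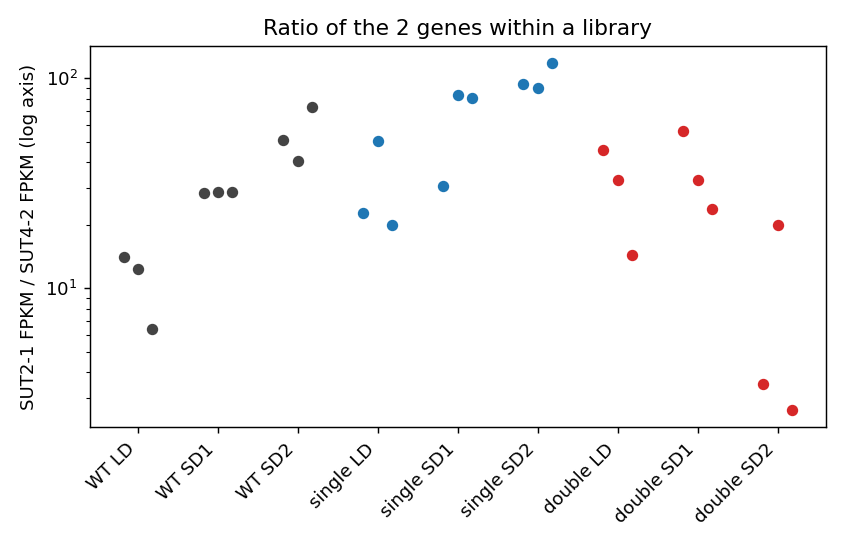
FPKM of SUT2-1 divided by FPKM of SUT4-2 in each library, on a log axis, 1 point per library. The single line at SD2 lies at 89.7 to 118 and the double line at SD2 has points at 2.64, 3.51 and 20.1.

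Other genes named as sucrose transporters were SUT1-2 (LOC106353754) and SUT3-2 (LOC106438190), taken by name because no protein sequences were available to build the family. SUT1-2 had a mean of 17.2 CPM (7.83 to 40.2). At SD2 it stood at 15.4, 31.4 and 22.3 CPM in the double line, at 13.4, 7.83 and 8.65 CPM in the single line and at 11.7, 11.9 and 15.5 CPM in wild type. It was higher in the double than in the single line at SD2 by a log2 difference of 1.21 ± 0.28 (edgeR adjusted p = 0.0101), with no overlap, and by 0.92 (adjusted p = 0.0325) without replicate 2 of the double line. That call was lost without replicate 2 (adjusted p = 0.0653) or replicate 3 (0.0634) of the single line at SD2, and in a fit of those 6 libraries alone (0.101). Against wild type at SD2 the double line's difference was 0.82 (edgeR adjusted p = 0.0773), and 0.53 (0.220) without its replicate 2, the library in which both SUT1-2 and SUT2-1 were highest within that group. In LD SUT1-2 already stood 0.55 above wild type and 0.72 above the single line in the double line (edgeR adjusted p = 0.468 and 0.385). Within the double line its SD2 level differed from LD by -0.35 (edgeR adjusted p = 0.434), a value of -0.64 without replicate 2 of SD2 and of -0.05 without replicate 3 of LD. SUT3-2, with a mean of 12.2 CPM (6.66 to 18.1), differed there by 0.31 from wild type (edgeR adjusted p = 0.452) and by 0.47 from the single line (0.231), or by 0.40 and 0.56 without replicate 2 of the double line.

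**Figure D4:**
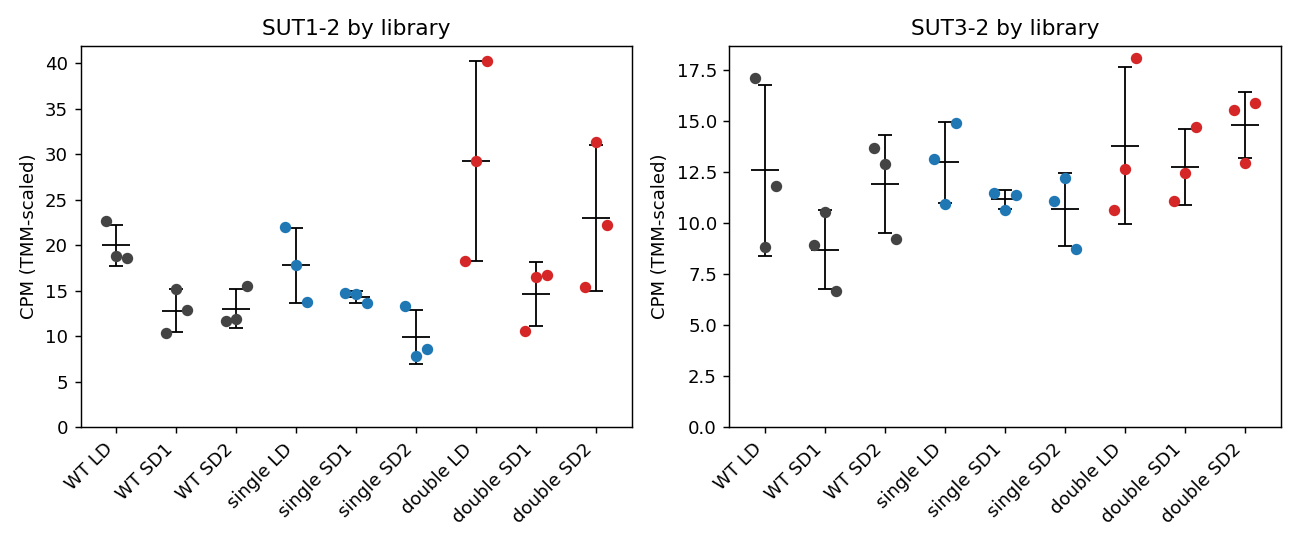
Level of SUT1-2 and SUT3-2 in CPM on TMM-scaled library sizes, 1 point per library, with the mean and SD of each group of 3. SUT1-2 has 15.4, 31.4 and 22.3 CPM in the double line at SD2, and SUT3-2 stays between 6.66 and 18.1 CPM.

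Beside these, 6 other genes were taken as sugar handling by name. The cell wall invertases CWINV4-1, CWINV2-1 and CWINV4-2 split sucrose outside the cell. The others were agps1, named for ADP-glucose pyrophosphorylase of starch synthesis, bmy, named for the starch-degrading beta-amylase, and TMT (LOC106390439). The name TMT can mean more than 1 kind of protein, so TMT may not handle sugar, and it was kept in the list and its medians. Of these 6 and the other SUT genes, 8 in all, 1 was called in double against single line at SD2 (SUT1-2, higher), where 7.5% of all tested genes were called, and none in the other 23 comparisons, at edgeR adjusted p under 0.05. Their median log2 difference in the double line at SD2 was -0.09 against wild type (all tested genes -0.01), -0.34 against the single line (0.04) and -0.17 against LD (-0.03). Without replicate 2 of the double line at SD2, a setting added after seeing the data, these medians were 0.13, -0.22 and -0.32, so the first turned in sign. At an unadjusted p under 0.05 there were 2, 2 and 1 of the 8 in those comparisons, beside 24.3%, 23.4% and 30.1% of all tested genes. The first 2 of these percentages are close to the list's own shares, and the third is above it.

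TMT stood at 27.7, 53.8 and 31.5 CPM in the double line at SD2, and its mean over all libraries was 50.7 CPM. Its replicate 2 again stood apart. TMT differed in the double line at SD2 by -0.48 from wild type, -0.58 from the single line and -0.57 from LD (edgeR adjusted p = 0.153, 0.0864 and 0.0614), and without replicate 2 by -0.82, -0.93 and -0.92 (0.00388, 0.00124 and 8.76e-04). Without replicate 1 instead they were -0.28, -0.39 and -0.38 (0.540, 0.370 and 0.317). The gene agps1, at 170 to 407 CPM, differed by -0.42 from wild type and -0.22 from LD (edgeR adjusted p = 0.321 and 0.615). The first passed without replicate 2 of the double line at SD2 (-0.79, 0.0299) and stood at -0.19 (0.763) without replicate 3. Levels of bmy ran from 19.4 to 53.6 CPM. The invertases were near the limit of counting, with means of 0.727, 0.166 and 0.360 CPM and 1, 3 and 3 libraries at 0 for CWINV4-1, CWINV2-1 and CWINV4-2.

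Among 341 named genes of at least 1 CPM on average, those most like SUT2-1 over the 27 libraries were ZEP (LOC106358361, r = 0.87), named for the zeaxanthin epoxidase of carotenoid metabolism, CCD (LOC106396750, 0.85), named for a carotenoid cleavage dioxygenase, HAB1.1 (LOC106447263, 0.83), named for a phosphatase that restrains abscisic acid signalling in Arabidopsis, Raf21 (LOC106401846, 0.82), a Raf-like kinase, and dof1 (LOC106451164, 0.79), of the Dof transcription factors. The most opposite were LOC106358182 (-0.82), named for a 14-3-3 protein, Crt1 (LOC106415836, -0.79), a calreticulin, and LRP,p40 (LOC106354211, -0.77). ZEP stood at 156, 229 and 183 CPM in the double line at SD2 and at 371, 343 and 333 CPM in wild type at SD2. As in SUT2-1, replicate 2 was the highest of the double line's libraries, and the groups did not overlap. ZEP was picked by its r over these same libraries, so this likeness follows in part from the choice and is no separate finding.

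Without the double line at SD2, a setting added after seeing the data, r was 0.87 for ZEP, 0.65 for CCD, 0.75 for HAB1.1, 0.72 for Raf21, 0.76 for dof1, -0.72 for LOC106358182, -0.55 for Crt1 and -0.61 for LRP,p40. ZEP kept its r and the others lost part of theirs. Such correlations were not confined to the named genes, though they were a small part of all genes. Of the 72038 other tested genes, 32 exceeded 0.9 with SUT2-1, 510 exceeded 0.8, and 1209 lay under -0.7.

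SUT4-2 had weaker company. Its most alike named genes were LOC106407512 (named GRF2b1 and GRF2b2, r = 0.60), GRF2a2 (LOC106383561, 0.58), BSK2 (0.57), TOC33 (0.57), part of the import machinery of chloroplasts, and CYP79F1 (0.51), an enzyme of glucosinolate synthesis. Without the single line these were 0.26, 0.31, -0.57, 0.015 and 0.40. The r of 4 of them was smaller without that line, and that of BSK2 turned in sign. BSK2 stood at 0 CPM in every single-line library and had group means of 9.55 to 10.5 CPM in the other genotypes. The group means of TOC33 were 8.66 to 14.0 CPM in the single line and 29.8 to 62.9 CPM in the others. Over all genes none exceeded 0.8 with SUT4-2, and 11 exceeded 0.7.

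**Figure D5:**
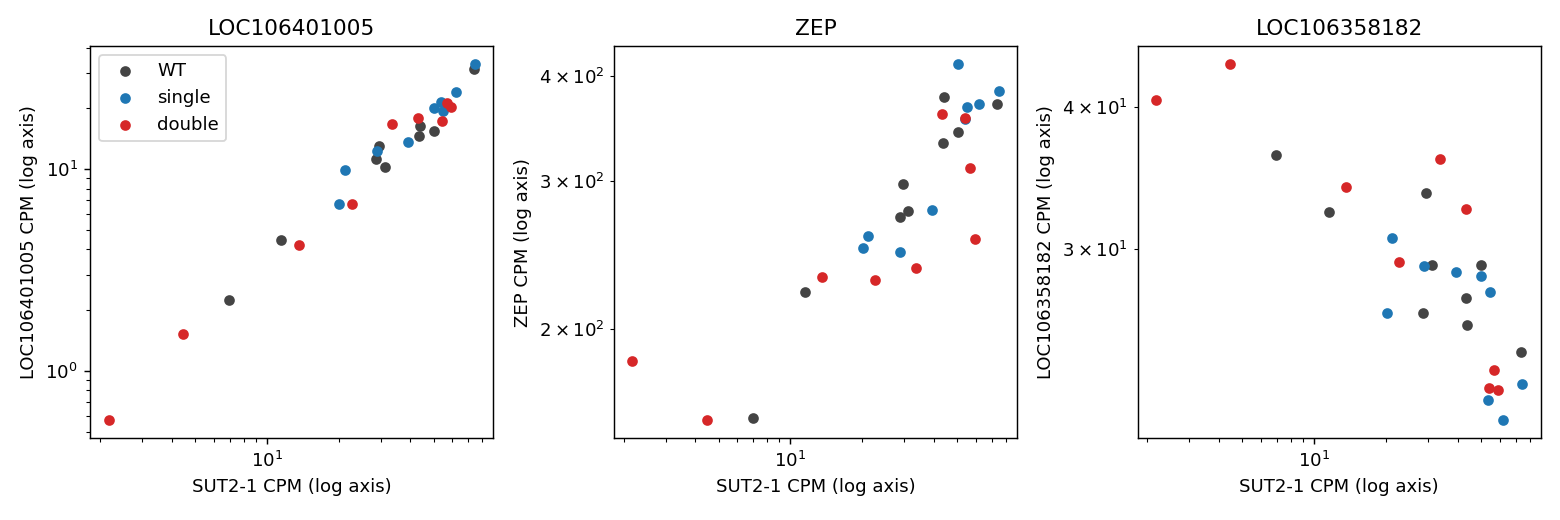
Level of SUT2-1 in CPM against that of LOC106401005, ZEP and the 14-3-3 gene LOC106358182, both on log axes, 1 point per library. LOC106401005 runs closely along SUT2-1 (r = 0.99), ZEP less closely (0.87), and LOC106358182 runs the other way (-0.82).

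The gene most like SUT2-1 over all tested genes was LOC106401005, with r = 0.99, and 0.98 without the double line at SD2. It is not in the gene table used for names, so nothing can be said of what it encodes. It stood at 0.568 to 33.3 CPM, which was 26.1% to 49.7% of the SUT2-1 value in the same library (median 37.4%). Its log2 difference of the double line from wild type at SD2 was -2.80 ± 0.72, beside -2.52 for SUT2-1. LOC106401005 was picked by its r over these same libraries, so a similar difference follows largely from the choice. Oilseed rape carries related gene copies from its 2 parent genomes, and reads of near-identical copies may be counted for either. Whether that touches SUT2-1 or LOC106401005 was not tested.

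For the 40 tested genes nearest to each in the Da-Ae order, 20 on each side, the median log2 difference over the 24 comparisons ran from -0.09 to 0.21 around SUT2-1 and from -0.08 to 0.21 around SUT4-2. With 10 genes on each side it ran from -0.17 to 0.32 and from -0.14 to 0.34. At SD2, comparing the double line with wild type, it was -0.09 around SUT2-1, which itself stood at -2.52.

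Markers of cell types were few in the gene table, and none named phloem, epidermis, root or flower. Of 3 mesophyll markers all were detected, and their summed level at SD2 was 291 to 756 CPM in the double line and 916 to 1393 CPM in wild type. Nearly all of it was catalase (LOC106358221), at 277, 748 and 453 CPM in the double line and 928, 905 and 1383 CPM in wild type at SD2. Catalase, like SUT2-1, was highest in replicate 2 of the double line. The log2 difference of catalase between those groups was -1.12 (edgeR adjusted p = 0.0329). The other mesophyll markers, the plastid-encoded rbcL and psbA, differed between them by 0.22 and 0.21 (edgeR adjusted p = 0.662 and 0.821). Both were low in these libraries, with means over all of them of 4.13 and 6.41 CPM against 659 CPM for catalase. How well such low levels follow the amount of mesophyll was not tested. At SD2 rbcL stood at 3.33, 4.30 and 4.18 CPM in the double line and 3.73, 3.09 and 3.29 CPM in wild type, and psbA at 10.1, 3.93 and 12.5 CPM and at 8.33, 7.67 and 6.88 CPM. The summed level of 4 cellulose synthase genes of secondary walls, which mark xylem, was 7.73 to 15.7 CPM in the double line at SD2, at most 12.6 CPM in wild type at SD2 and 5.12 to 12.1 CPM in the single line at SD2, against 24.4 to 30.7 CPM in wild type in LD. The part of cell composition in the SUT2-1 levels was not tested.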

How the data were processed

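Leaf RNA of 27 libraries was extracted with TRIzol and sequenced on a HiSeq instrument after TruSeq v2 preparation, per the labels' protocols. Trimming with Trim Galore and alignment with HISAT2 are named in the submitters' processing notes. The sources used here state no version, build, counting tool or strand. The authors deposited raw counts per gene and a table of FPKM values, whose method is not stated. The 1 entry that names no gene held 1.09e-05% of counts and was left out. Libraries were grouped by their labels. One edgeR 4.0.16 quasi-likelihood fit (R 4.3.3, TMM factors 0.862 to 1.14, filter by group, Benjamini-Hochberg adjustment over 72039 genes, threshold 0.05) gave 24 comparisons that share libraries. The scripts were tested on simulated data. The 2 genes, the lists and the comparisons were chosen with earlier results of these data known. Other named genes were the 5 most alike by r, with 3 of the most opposite, the other sucrose transporters by name, and sugar genes of lowest adjusted p in the double line at SD2. bmy and the invertases, outside that rule, complete their list. Alternatives were DESeq2 1.42.0, RLE scaling, no filter, limma 3.58.1 on log2(FPKM + 0.1) or log2(FPKM + 1), a replicate block, the libraries of a comparison alone, and leaving out each library. Names came from the RefSeq Da-Ae table, which matched 85737 identifiers and gave no sequence.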

Additional observations from a re-analysis of the deposited data

How the results depend on the processing

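Among the 214 values of SUT2-1 and 372 of SUT4-2 that were tested under an alternative, none was a call. Of all 372 values for SUT2-1, 10 reversed, 8 untested ones moved by more than the replicate spread, and 354 did neither. An untested value that changed sign counted as reversed only if its main value exceeded the replicate spread. The untested difference of the single line from wild type at SD2 was thus not counted, though it ran from -0.15 to 0.25 leaving out 1 library. Of 372 for SUT4-2, 33 reversed and 339 kept their direction. Leaving out 1 library gave 7 and 25 of the reversals. The lowest adjusted p was 0.176 for SUT2-1 (single line SD2 against LD, those 6 libraries alone) and 0.0943 for SUT4-2 (double against single line at SD2, DESeq2). No clear pairing of libraries by replicate number was seen. Over 108 pairs of libraries with the same number their deviations correlated at -0.317 to 0.233 (median -0.016), and 11 of 27 libraries were closest to their own number. With 3 libraries a group, these values cannot exclude a weak pairing. With the replicate block the SUT2-1 double line differences were -2.76 from wild type at SD2, -2.22 from LD and -4.03 for the difference of changes, and SUT4-2 in the single line at SD2 stood at -0.94 (edgeR adjusted p = 0.328). The block kept 21 of 24 counts of called genes within 1.5 times.

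Leaving out 1 library, SUT2-1 ran from -4.07 (without replicate 2 of the double line at SD2) to -2.02 against wild type at SD2, -3.67 to -1.64 for SD2 against LD in the double line, and -5.43 to -3.39 for the double minus wild-type change to SD2. Tested SUT2-1 values near 0 turned: -0.35 to 0.40 for SD1 against LD in the double line, -0.35 to 0.39 for double against single line at SD1, -1.30 to 0.17 for the single minus wild-type change to SD1, -0.029 to 0.71 for SD2 against SD1 in the single line and -0.0025 to 0.74 for single line against wild type at SD1. SUT4-2 ran from -1.27 to -0.72 for the single line against wild type at SD2 (adjusted p 0.117 to 0.733). It turned for the double line against the wild type in LD (-0.40 to 0.37), at SD1 (-0.049 to 0.28) and at SD2 (-0.34 to 0.21), for the double line's SD1 (-0.26 to 0.22) and SD2 (-0.48 to 0.00023) against LD, for the double minus wild-type change to SD1 (-0.31 to 0.46) and SD2 (-0.41 to 0.36), for the single minus wild-type change to SD1 (-0.59 to 0.15), and in wild type for SD1 against LD (-0.47 to 0.23), SD2 against LD (-0.61 to 0.12) and SD2 against SD1 (-0.37 to 0.18). SD2 against LD in the double line ran from -0.063 to 0.34 for SUT3-2 and from -0.58 to 0.0056 for agps1. The cause was not tested.

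On FPKM, SUT2-1 stood at 0.0066 (pseudocount 0.1) and 0.0046 (pseudocount 1) for double against single line at SD1. SUT4-2 stood at 0.11 and 0.039 for SD1 against LD in the double line, at 0.020 (pseudocount 0.1) for SD2 against LD, and at 0.081 and 0.017 at SD2 between the double line and wild type. For agps1 the SD2 value against LD in the double line was 0.023 under each FPKM setting. FPKM with a pseudocount of 0.1 moved the median of all genes to 0.217 for that comparison. Of the 8 sugar handling genes DESeq2 called 1 for SD2 against LD in the double line, 2 in double against single line at SD2 and 1 at SD2 between the double line and wild type, beside 20.9%, 12.2% and 12.4% of the 72039 genes. The fit of the libraries of a comparison alone called 0 in double against single line. Leaving out 1 library gave 0 to 1, 0 to 2 and 0 to 2 calls, the upper values without replicate 2 of the double line at SD2.

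Between the double line and wild type at SD2 the counts of called genes were 4899, 8968 with DESeq2, 272 from those 6 libraries alone, and 1126 to 13280 leaving out 1 library. For SD2 against LD in the double line they were 11340, 15054, 0 and 4253 to 19117. Of the 24 comparisons DESeq2 kept 4 counts within 1.5 times and raised 20, and of 180 counts without 1 library 84 stayed within 1.5 times, 64 were lower and 32 higher. A family list from protein identity, with its alternative threshold, was not run. Counting error is larger for SUT4-2, at 31 to 145 counts, than for SUT2-1, and smaller than the replicate spread fitted over all groups in both. Within the single line at SD2 the replicate spread of SUT4-2 was narrower than counting error.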
